A study of Capra hircus with 12 samples.

Results

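The genes described here are those of glycolysis and gluconeogenesis in the lactating goat mammary gland. They were chosen by annotation: a gene was taken where its KEGG terms in the deposited tables hold Glycolysis / Gluconeogenesis. HK1, HK2, PGM1 and ACSS2 were left out by name, and 10 further holders of the term were left out because they also carry the citrate cycle term or the term for valine, leucine and isoleucine degradation. Of 56 holders of the term this left 42 genes, among 16211 genes listed in any library. Of the 42, 40 were listed for all 12 libraries and 38 passed the filter on low counts, as did 13624 genes in all. ENO1, the common enolase, does not carry the term in these tables and is therefore no member.

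The 12 RNA-seq libraries came from mammary biopsies of lactating female dairy goats (Capra hircus) whose glands had been infused with glucose at 1 of 3 doses (low, middle, high), with 4 libraries a dose. The sources used here do not give the amounts infused, the length of infusion or the breed and age of the goats. No gland without glucose infusion was analysed here. Since no label ties each library to a goat of its own, p-values here cover the spread among the libraries only, part or all of which may be technical. The question the doses pose is whether transcript levels of the pathway moved with glucose supply, and each pair of doses was compared.

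Glycolysis splits glucose into pyruvate in the cytosol, with ATP spent at the hexokinase and phosphofructokinase steps and regained at the phosphoglycerate kinase and pyruvate kinase steps; lactate dehydrogenase interconverts pyruvate and lactate. Gluconeogenesis runs most of the same reversible steps backwards and bypasses the irreversible ones with enzymes such as fructose-1,6-bisphosphatase and glucose-6-phosphatase. In the lactating gland much of the glucose taken up is made into lactose, and the ruminant gland makes milk fat mainly from acetate and 3-hydroxybutyrate rather than from glucose.

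The libraries held 9555072 to 12716883 counts. The share taken by 9 milk protein genes ran from 2.18 to 13.8% at the low dose and from 7.52 to 42.7% at the high dose. At the middle dose it was 52.6 to 59.6% in replicates 1, 2 and 4 and 3.45% in replicate 3 (exact 95% binomial intervals within 0.0311 percentage points, counting error only). Middle-dose replicate 3 thus stood apart from the other libraries of its dose, and its effect is given beside the results it touches. The 40 pathway genes listed for all libraries took 0.350% ± 0.0324, 0.192% ± 0.111 and 0.315% ± 0.0727 of counts at the low, middle and high dose (SD, n = 4 each). With the milk protein genes left out of the total, these shares were 0.380% ± 0.0158, 0.329% ± 0.0295 and 0.392% ± 0.0169. Among the fixed cell type markers, the 7 T and NK cell genes summed to 139.5 to 218.7 CPM (read counts relative to the scaled library size) at the low dose, with 52.2 to 104.4 CPM at the middle and 58.1 to 114.6 CPM at the high dose. Every middle-dose and high-dose sum thus lay below every low-dose one. The 8 listed of 9 secretory epithelium genes, milk protein genes among them, summed to 16170 to 104200, 25840 to 1120000 and 50470 to 545400 CPM in the same order. The 6 listed of 7 macrophage genes summed to 244.7 to 625.3, 165.0 to 340.9 and 312.1 to 445.1 CPM, and the 5 endothelial genes to 561.2 to 755.3, 583.5 to 1240 and 597.6 to 800.5 CPM. The 5 myoepithelial genes summed to 1356 to 1974, 864.1 to 1267 and 1203 to 2186 CPM, lower in every middle-dose than in every low-dose library, and the 6 fibroblast genes to 3287 to 19540, 1734 to 6974 and 2459 to 10070 CPM. The 4 neutrophil genes summed to 12.3 to 28.2, 9.71 to 38.1 and 11.5 to 70.9 CPM, and the 4 adipocyte genes to 5.52 to 28.4, 3.19 to 17.8 and 3.53 to 7.72 CPM. The 3 listed of 5 red blood cell genes summed to at most 13.9 CPM in any library. The 4 listed of 8 skeletal muscle genes summed to at most 4.27 CPM in any library, and no listed marker was at 0 in all libraries. The part of the milk share and of these cell types in the pathway results was not tested. In bulk tissue, fewer cells of a type and less RNA per cell cannot be told apart.

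Coordinates here are those of the deposited tables, whose genome build is not named. The members lie on 19 chromosomes, apart from 3 alcohol dehydrogenase-like genes on unplaced sequences. On chromosome 5, ENO2 (94663906 to 94672244), TPI1 (94706170 to 94708663) and GAPDH (94992133 to 94996980) are neighbours, with 33.9 kb between the first pair and 283.5 kb between TPI1 and GAPDH. LDHA, written LDH-A in the tables, lies on chromosome 29 (25221578 to 25231220), 3.3 kb from LDHC, the testis form. FBP1 lies on chromosome 8 (79215748 to 79247003), 23.5 kb from FBP2, the muscle form. Reads of near-identical copies can be split by counting, so GAPDH, the LDHA and LDHC pair, the alcohol dehydrogenases and the pair ALDH3B1 and LOC102185156 (named in RefSeq as an ALDH3B1-like gene, 33.0 kb apart on chromosome 29) are uncertain to that degree.

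At the middle dose, most genes of the glycolytic trunk, the steps from GPI to lactate dehydrogenase, had lower estimates than at the low dose. The lowest p-values among them were those of LDHA, GAPDH, TPI1, PGAM1 and PFKP, with differences of 1.53-fold to 2.40-fold. FBP1, ADPGK and LOC102185156 had higher estimates. At the high dose the trunk genes stood near their low-dose levels again. In edgeR's quasi-likelihood test with Benjamini-Hochberg adjustment, no gene passed an adjusted p of 0.05 in any of the 3 comparisons of doses (0% of 13624 genes in each), pathway genes included, so each difference below is an estimate that did not pass.

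Before adjustment, 9 of the 38 tested members (23.7%) were lower at the middle than at the low dose at p under 0.05, against 11.3% of all genes, and 4 (10.5%) were higher, against 12.5% of all genes. Between the high and the middle dose, 9 (23.7%) were higher at the high dose, against 7.49% of all genes, and 3 (7.89%) were lower, against 7.4%. Between the high and the low dose, 3 (7.89%) were higher, against 7.27%, and 0 were lower, against 4.18%. In the test of any difference among doses 14 members (36.8%) had an unadjusted p under 0.05, against 21.4% of all genes. Middle against low and high against middle share the middle-dose libraries, so their counts are not separate evidence. The shares of lower genes for middle against low, of higher genes for high against middle and of any difference were above the background. For lower genes this did not hold by library size alone, as given below. The other counts stood near it or below it.

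The median log2 fold change of the 38 members was -0.29 for middle against low (15 positive, 23 negative), where the median of all genes was -0.03. For high against middle it was 0.19 (26 positive, 12 negative; all genes 0.03), and for high against low it was -0.01 (19 positive, 19 negative; all genes -0.03). These values use TMM, a scaling that offsets the space that abundant transcripts take in a library. With library size alone the median of all genes moved to -0.86 for middle against low, to 0.56 for high against middle and to -0.32 for high against low, while that of the members moved to -0.93, 0.63 and -0.24. For middle against low the members' median thus stood below that of all genes under both scalings, but only slightly by library size alone. By that scaling 15 of the 38 members were lower at unadjusted edgeR p under 0.05, as were 5765 of 13624 genes. The excess of lower members seen under TMM was thus absent there. ADPGK and FBP1, positive under TMM, had negative estimates by library size alone (-0.34 and -0.25).

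**Figure D1:**
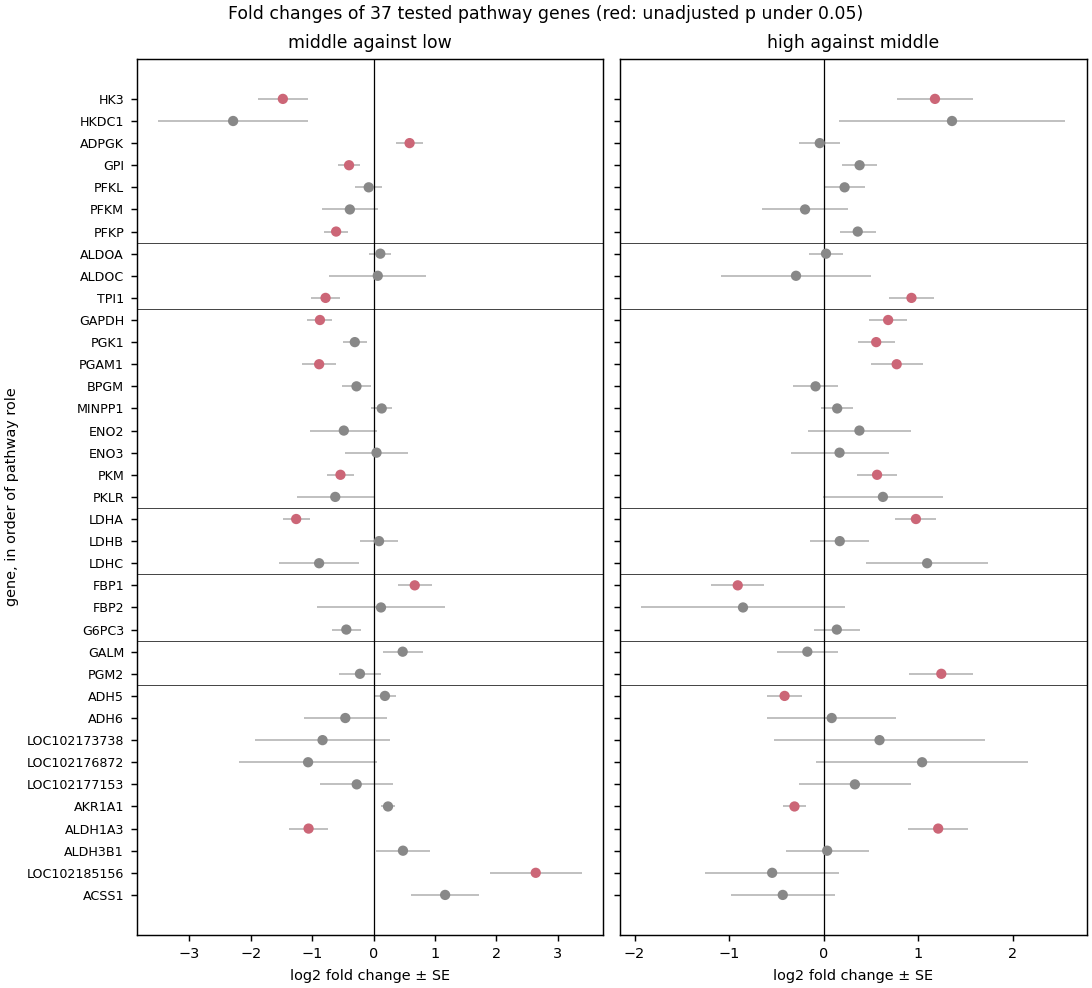
Log2 fold change with its standard error (horizontal axis) of 37 tested pathway genes, in order of pathway role (vertical axis), for middle against low and high against middle. Red points have an unadjusted p under 0.05 in edgeR's quasi-likelihood test (12 genes on the left, 12 on the right); none passed after adjustment.

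Glucose is trapped in the cell by phosphorylation. HK3, the hexokinase known from white blood cells, stood at 17.4, 6.71, 27.8 and 11.9 CPM at the low dose, at 6.80, 6.93, 2.78 and 6.72 CPM at the middle dose and at 11.5, 12.7, 13.4 and 14.1 CPM at the high dose. The high-dose libraries all lay above the middle-dose ones, while low-dose replicate 2 lay within the middle-dose range. Estimates were -1.48 ± 0.40 for middle against low (edgeR adjusted p = 0.0815) and 1.18 ± 0.40 for high against middle (adjusted p = 0.257). The macrophage sum was highest in low-dose replicate 3 (625.3 CPM), as HK3 was. Low-dose replicate 2 was lowest of its dose in both (macrophage sum 244.7 CPM). Middle-dose replicate 3, the library lowest in HK3, had the highest macrophage (340.9 CPM) and neutrophil (38.1 CPM) sums of its dose. The T and NK cell sums were higher in every low-dose library than in any other, and those of the high and middle doses overlapped. The part of white cells in HK3 was not tested.

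ADPGK, a kinase that phosphorylates glucose with ADP, stood at 40.9, 60.3, 43.3 and 43.1 CPM at the low dose, at 76.9, 73.3, 55.7 and 76.2 CPM at the middle dose and at 41.5, 77.1, 85.9 and 69.4 CPM at the high dose. Middle-dose replicate 3 and low-dose replicate 2 cross, and high-dose replicate 1 lay at the low-dose level. The estimates were 0.59 ± 0.22 for middle against low (edgeR adjusted p = 0.138) and 0.55 ± 0.22 for high against low (adjusted p = 0.396). HKDC1, a hexokinase-like protein, varied from 1.02 to 62.8 CPM over the 12 libraries, with 1.02 to 1.67 CPM in middle-dose replicates 1, 2 and 4 and 22.7 CPM in replicate 3.

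GPI, which turns glucose 6-phosphate into fructose 6-phosphate, stood at 123.4, 78.2, 123.2 and 96.2 CPM at the low dose, at 67.2, 90.0, 92.2 and 69.9 CPM at the middle dose and at 120.0, 84.6, 100.9 and 109.6 CPM at the high dose. Replicate 2 of the low and of the high dose lay within the middle-dose range, and the estimate for middle against low was -0.40 ± 0.18 (edgeR adjusted p = 0.209).

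Phosphofructokinase commits the sugar to glycolysis and has 3 genes. PFKL, the liver form and the one with the most counts, stood at 59.3, 70.6, 47.0 and 64.3 CPM at the low dose, at 46.8, 47.0, 82.8 and 51.3 CPM at the middle dose and at 68.9, 54.7, 84.4 and 57.9 CPM at the high dose. Middle-dose replicate 3 was well above the other libraries of its dose, and the groups overlapped throughout. PFKP, the platelet form, stood at 28.4, 16.8, 25.0 and 25.3 CPM at the low dose, at 15.4, 18.5, 14.8 and 13.8 CPM at the middle dose and at 24.8, 16.3, 19.3 and 19.8 CPM at the high dose. Replicate 2 of the low and of the high dose came within the middle-dose range of PFKP, and its estimate for middle against low was -0.61 ± 0.19 (edgeR adjusted p = 0.102). PFKM, the muscle form, ranged from 4.38 to 18.3 CPM with overlap in every comparison.

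Aldolase and triose phosphate isomerase make the triose phosphates. ALDOA, the main aldolase, stood at 277.7, 313.5, 403.2 and 245.7 CPM at the low dose, at 344.6, 370.4, 298.9 and 324.8 CPM at the middle dose and at 267.1, 339.0, 366.2 and 388.6 CPM at the high dose. Its groups overlapped, and the middle-against-low estimate was 0.11 ± 0.18 (edgeR adjusted p = 0.734). ALDOC, the brain form, ran from 3.71 to 53.1 CPM, with wide spread at each dose.

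TPI1, which interconverts the triose phosphates, stood at 165.1, 112.9, 144.5 and 116.8 CPM at the low dose, at 92.6, 51.1, 105.0 and 64.6 CPM at the middle dose and at 150.8, 111.0, 178.8 and 156.2 CPM at the high dose. All 4 middle-dose libraries lay below all 8 others, although replicate 3 came within a few CPM of the next. Estimates were -0.78 ± 0.24 for middle against low (edgeR adjusted p = 0.0947) and 0.93 ± 0.24 for high against middle (adjusted p = 0.209).

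The ATP-yielding steps begin with GAPDH, which oxidises glyceraldehyde 3-phosphate and makes NADH. It stood at 537.4, 384.3, 455.2 and 400.6 CPM at the low dose, at 226.5, 221.9, 318.9 and 203.0 CPM at the middle dose and at 498.2, 308.8, 339.2 and 409.6 CPM at the high dose. The middle-dose libraries lay below all low-dose ones, and replicate 3 overlapped high-dose replicate 2. The estimate for middle against low was -0.87 ± 0.20 (1.83-fold lower, edgeR adjusted p = 0.0735), and that for high against middle 0.68 ± 0.20 (adjusted p = 0.225). GAPDH is often used as a reference gene.

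PGK1, which makes ATP in the next step, stood at 124.6, 106.0, 109.2 and 143.7 CPM at the low dose, at 84.7, 118.6, 106.6 and 81.5 CPM at the middle dose and at 133.0, 148.9, 187.5 and 105.4 CPM at the high dose, with overlap in each comparison. PGAM1, the phosphoglycerate mutase of most tissues, stood at 83.5, 70.4, 73.6 and 64.9 CPM at the low dose, at 25.8, 48.4, 57.1 and 26.5 CPM at the middle dose and at 87.3, 44.1, 76.6 and 61.7 CPM at the high dose. For PGAM1 the middle-dose libraries lay below all low-dose ones, and high-dose replicate 2 lay within the middle-dose range. Estimates for PGAM1 were -0.89 ± 0.28 for middle against low (edgeR adjusted p = 0.101) and 0.77 ± 0.28 for high against middle (adjusted p = 0.265), and PGK1 had 0.55 ± 0.19 for high against middle (adjusted p = 0.263).

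BPGM, which makes 2,3-bisphosphoglycerate, ranged from 5.41 to 12.04 CPM, and MINPP1, a phosphatase of inositol phosphates that also acts on that compound, from 16.3 to 29 CPM. These genes were among the 5 members with the smallest p for high against low, with estimates of -0.36 ± 0.23 and 0.27 ± 0.17 (edgeR adjusted p = 0.54 and 0.521). In replicates 1 to 4, BPGM stood at 7.36, 7.27, 12.04 and 10.1 CPM at the low dose, at 7.49, 6.59, 9.14 and 6.92 CPM at the middle dose and at 8.78, 6.31, 5.41 and 7.95 CPM at the high dose. MINPP1 stood at 16.3, 19.8, 20.9 and 21.5 CPM, at 18.0, 23.4, 23.5 and 20.98 CPM and at 18.3, 24.3, 29 and 23.3 CPM at the low, middle and high dose. Doses overlapped for both genes.

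The enolases that carry the term are minor here. ENO3, the muscle form, stood at 5.28, 3.63, 2.52 and 4.31 CPM at the low dose, at 1.67, 2.95, 8.99 and 2.24 CPM at the middle dose and at 7.99, 3.22, 3.005 and 3.97 CPM at the high dose, and ENO2, the neuronal form, ranged from 1.22 to 9.003 CPM. Both overlapped between doses. ENO1, no member, stood at 253.7 to 333.1 CPM at the low dose, 125.4 to 323.1 CPM at the middle dose and 238.1 to 315.9 CPM at the high dose. Its highest middle-dose value was again that of replicate 3. ENO1 had estimates of -0.63 ± 0.27 for middle against low (edgeR adjusted p = 0.184) and 0.58 ± 0.27 for high against middle (adjusted p = 0.336).

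PKM, the pyruvate kinase of tissues other than liver and red cells, stood at 264.3, 165.1, 298.1 and 241.2 CPM at the low dose, at 145.0, 200.7, 168.0 and 153.1 CPM at the middle dose and at 321.9, 218.8, 189.8 and 255.1 CPM at the high dose. Low-dose replicate 2 and high-dose replicate 3 lay within the middle-dose range. The estimates were -0.54 ± 0.21 and 0.56 ± 0.21 for middle against low and high against middle (edgeR adjusted p = 0.159 and 0.276). PKLR, the liver and red cell form, stayed between 0.139 and 1.91 CPM, and PGAM2, the muscle mutase, was listed in 8 tables with at most 4 counts.

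LDHA, the lactate dehydrogenase subunit prevalent in muscle and fast glycolysis, stood at 81.4, 39.3, 73.5 and 58.8 CPM at the low dose, at 28.5, 27.4, 25.7 and 24.0 CPM at the middle dose and at 63.8, 39.6, 55.1 and 48.9 CPM at the high dose. The middle-dose libraries lay below all 8 others and within a narrow range, and replicate 3, whose milk share was like that of the low-dose libraries, was among them. The estimate for middle against low was -1.26 ± 0.22 (unadjusted p = 8.35e-05, edgeR adjusted p = 0.0735), the smallest p of the pathway. High against middle gave 0.97 ± 0.22 (adjusted p = 0.198) and high against low -0.29 ± 0.21 (adjusted p = 0.597). By library size alone, LDHA stood at 55.8 to 121.9 CPM at the low dose, 12.3 to 35.3 at the middle dose and 29.9 to 89.1 at the high dose, so that high-dose replicate 2 then stood below middle-dose replicate 3.

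The deposited tables came in 2 layouts with different gene lists. In the layout of 4 libraries LDHA stood at 73.5 CPM in the low-dose library, 28.5 CPM in the middle-dose one and 48.9 and 63.8 CPM in the high-dose ones. In the layout of 8 it stood at 39.3 to 81.4 CPM in 3 low-dose and 24.0 to 27.4 CPM in 3 middle-dose libraries. The remaining libraries of that layout stood at 39.6 and 55.1 CPM. No test was made within a layout, and no other member was split in this way.

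LDHB, the heart subunit, stood at 221.7, 324.4, 158.9 and 327.7 CPM at the low dose, at 219.7, 223.8, 406.2 and 248.9 CPM at the middle dose and at 275.6, 351.9, 426.9 and 181.4 CPM at the high dose. The doses overlapped throughout, with an estimate of 0.09 ± 0.31 for middle against low (edgeR adjusted p = 0.883). LDHC stayed between 0.257 and 2.03 CPM.

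**Figure D2:**
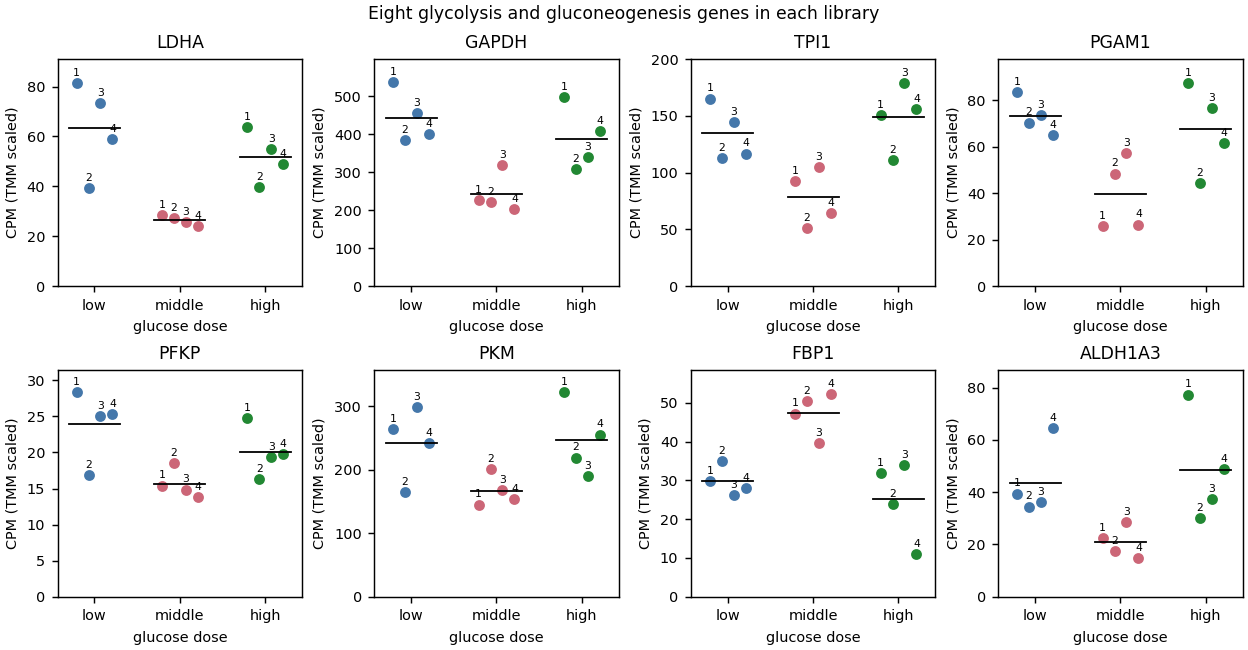
CPM scaled by TMM (vertical axis, from 0) of 8 pathway genes in each library, by glucose dose (horizontal axis); points are libraries with their replicate number and lines are means of 4. LDHA at the middle dose lies between 24.0 and 28.5 CPM, below the 8 other libraries, while FBP1 at the middle dose lies between 39.7 and 52.1 CPM, above them.

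Of the gluconeogenic bypass, FBP1, which removes a phosphate from fructose 1,6-bisphosphate, stood at 29.7, 35.0, 26.2 and 28.0 CPM at the low dose, at 47.2, 50.4, 39.7 and 52.1 CPM at the middle dose and at 31.9, 23.8, 34.0 and 10.96 CPM at the high dose. All middle-dose libraries lay above the 8 others, in the reverse of the LDHA order. Estimates were 0.67 ± 0.28 for middle against low (edgeR adjusted p = 0.173) and -0.91 ± 0.28 for high against middle (adjusted p = 0.23). By library size alone middle-dose FBP1 ran from 26.3 to 54.5 CPM and overlapped the low dose (32.6 to 49.6 CPM).

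G6PC3, the glucose-6-phosphatase found in most tissues, stood at 16.1, 13.2, 10.6 and 14.7 CPM at the low dose, at 9.02, 10.2, 13.2 and 7.54 CPM at the middle dose and at 15.4, 8.75, 8.87 and 11.1 CPM at the high dose. Its groups overlapped. G6PC, the liver enzyme that lets cells release free glucose, had 0 to 3 counts a library and was not tested, and FBP2 lay between 0 and 3.08 CPM.

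Sugars enter by GALM, which interconverts the forms of galactose and glucose, and PGM2, a mutase that acts on pentose phosphates as well as glucose phosphates. PGM2 stood at 65.4, 88.5, 52.6 and 84.4 CPM at the low dose, at 69.0, 41.1, 86.2 and 52.7 CPM at the middle dose and at 73.7, 189.7, 219.2 and 108.3 CPM at the high dose. High-dose replicates 2, 3 and 4 lay above all 8 libraries of the other doses and replicate 1 lay within them. PGM2 had the smallest p of the pathway for high against low, 1.02 ± 0.34 (edgeR adjusted p = 0.386), and 1.24 ± 0.34 for high against middle (adjusted p = 0.211). GALM stood at 76.8, 149.6, 50.4 and 111.1 CPM at the low dose, at 129.1, 85.1, 171.2 and 153.1 CPM at the middle dose and at 95.5, 122.7, 165.4 and 94.1 CPM at the high dose, with overlap between all doses.

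The KEGG map also takes in enzymes that oxidise alcohols and aldehydes or activate acetate. ALDH1A3, which makes retinoic acid from retinal, stood at 39.4, 34.4, 36.2 and 64.5 CPM at the low dose, at 22.5, 17.5, 28.7 and 14.7 CPM at the middle dose and at 77.3, 29.99, 37.4 and 48.9 CPM at the high dose. Its middle-dose libraries lay below the 8 others. Estimates were -1.06 ± 0.32 for middle against low (edgeR adjusted p = 0.0951) and 1.21 ± 0.32 for high against middle (adjusted p = 0.209).

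LOC102185156 stood at 9.31, 3.84, 11.5 and 11.7 CPM at the low dose, at 49.3, 76.8, 11.5 and 90.6 CPM at the middle dose and at 18.9, 100.8, 10.4 and 26.4 CPM at the high dose. Its high values were in libraries rich in milk transcripts: high-dose replicate 2 and all of the middle dose but replicate 3, the 4 with a milk share of 42.7% or more. The part of the milk share in these values was not tested. Estimates were 2.64 ± 0.75 for middle against low (edgeR adjusted p = 0.0845) and 2.10 ± 0.74 for high against low (adjusted p = 0.386).

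ACSS1, which activates acetate in mitochondria, stood at 51.5, 62.4, 190.8 and 53.0 CPM at the low dose, at 258.8, 253.2, 64.5 and 226.7 CPM at the middle dose and at 64.8, 235.9, 105.8 and 188.2 CPM at the high dose. The same 4 milk-rich libraries held its highest values, and low-dose replicate 3 and high-dose replicate 4 came next. Middle against low gave 1.17 ± 0.55 (edgeR adjusted p = 0.224).

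ADH5, a dehydrogenase that clears formaldehyde bound to glutathione, stood at 64.3, 54.6, 69.3 and 69.1 CPM at the low dose, at 85.5, 69.0, 55.1 and 83.3 CPM at the middle dose and at 56.5, 69.4, 40.9 and 52.9 CPM at the high dose. AKR1A1, an aldehyde reductase, stood at 42.1, 47.6, 41.2 and 47.7 CPM, at 47.5, 54.3, 53.3 and 55.4 CPM and at 42.7, 48.0, 37.9 and 41.1 CPM at the low, middle and high dose. Both had lower estimates at the high than at the middle dose, -0.41 ± 0.18 and -0.31 ± 0.12 (edgeR adjusted p = 0.325 and 0.277), and both overlapped. The sign of each turned by library size alone (0.19 and 0.22). ALDH3B1 ranged from 4.13 to 15.3 CPM, ADH6 from 0.347 to 3.22 CPM, and the alcohol dehydrogenase-like genes LOC102173738, LOC102176872 and LOC102177153 from 0 to 9.39 CPM. ALDH3A1 was listed in 8 tables with at most 3 counts.

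Counted by role for middle against low, the 17 tested trunk genes from GPI to lactate dehydrogenase had 4 positive and 13 negative estimates with a median of -0.48, and 7 of them were lower at unadjusted p under 0.05, against 11.3% of all genes. With table layout as a term, the median of all 38 members for this comparison was -0.30. For high against middle the 17 trunk genes had 15 positive and 2 negative estimates with a median of 0.38, and for high against low 9 and 8. The 10 tested alcohol and aldehyde genes split 5 to 5 for middle against low. Middle-dose replicate 3 lay below the low-dose range in 7 of the 17 trunk genes, within it in 4 and above it in 6. The matching share over all genes was not counted, and LDHC (below) and PKLR (above) rest on few counts.

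**Figure D3:**
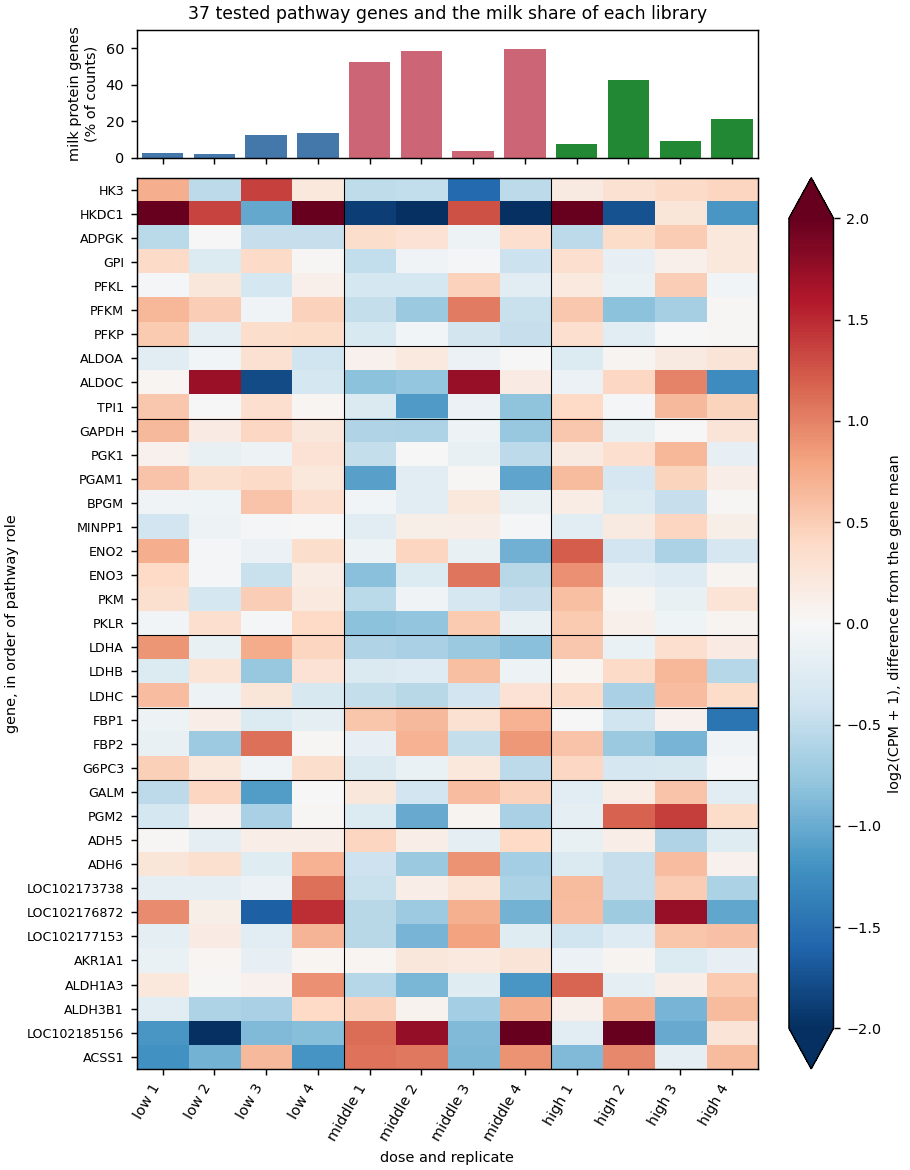
Upper panel: percent of counts from milk protein genes (vertical axis) in each library. Lower panel: log2(CPM + 1) of 37 tested genes (rows, in order of pathway role) as a difference from the gene's mean over 12 libraries (columns, by dose and replicate), in color. Middle-dose replicates 1, 2 and 4 (milk share 52.6 to 59.6%) look alike, and replicate 3 (3.45%) differs from them in many rows.

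By the ranges alone, 5 members (ALDH1A3, GAPDH, LDHA, PGAM1 and TPI1) lay lower in every middle-dose than in every low-dose library, which held for 5.92% of all genes, and 2, FBP1 among them, lay higher, against 5.93%. Between high and middle, 4 (ALDH1A3, HK3, LDHA and TPI1) lay higher at the high dose, against 3.33% of all genes, and FBP1 lay lower, against 2.61%. Between high and low no member was without overlap in either direction, against 2.25% of all genes higher and 2.47% lower. Set against both other doses, the middle dose was lower without overlap for ALDH1A3, LDHA and TPI1 (1.1% of all genes) and higher for FBP1 (0.976%). By library size alone, 9 members lay lower without overlap at the middle than at the low dose (ADH5, ALDH1A3, GAPDH, HK3, LDHA, PFKP, PGAM1, PKM and TPI1), against 15.5% of all genes, and LOC102185156 lay higher, against 0.389%. HK3 was then the only member higher at the high than at the middle dose (2.19% of all genes) and the only one lower at the middle dose than at both others (1.2%).

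The calls depended on middle-dose replicate 3 and on the tool. With that library left out, edgeR called 6 members lower at the middle than at the low dose (15.8%, against 8.63% of all genes) and 2 higher (5.26%, against 8.68%). The lower ones were GAPDH at -1.03 (edgeR adjusted p = 0.0112), LDHA at -1.25 (0.0116), PGAM1 at -1.12 (0.0205), TPI1 at -0.96 (0.0226), ALDH1A3 at -1.25 (0.0295) and HKDC1 at -4.75 (0.0362). LOC102185156, at 2.99 (edgeR adjusted p = 0.0163), was among the higher ones. For high against middle, 3 were then higher (1.7% of all genes): TPI1 at 1.10, GAPDH at 0.84 and ALDH1A3 at 1.41 (edgeR adjusted p = 0.0372, 0.045 and 0.048). The LDHA estimate for middle against low was -1.26 with this library and -1.25 without it. Without low-dose replicate 2 its middle-against-low estimate was -1.43 (edgeR adjusted p = 0.0473).

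With all 12 libraries, the DESeq2 test called 7 members lower at the middle than at the low dose (18.4%, against 4.29% of all genes) and 2 higher (5.26%, against 6.06%). LDHA fell by 1.25 on the log2 scale (DESeq2 adjusted p = 0.000129), GAPDH by 0.86 (0.00207), HK3 by 1.47 (0.011) and ALDH1A3 by 1.05 (0.0271). TPI1, PGAM1 and PFKP fell by 0.77, 0.88 and 0.60 (DESeq2 adjusted p = 0.0314, 0.0365 and 0.0447), while LOC102185156 rose by 2.66 (0.00389). For high against middle DESeq2 called 5 higher (13.2%, against 0.925% of all genes): LDHA rose by 0.98 (DESeq2 adjusted p = 0.00968), TPI1 by 0.93 (0.0255), ALDH1A3 by 1.21 (0.0287), PGM2 by 1.25 (0.0316) and GAPDH by 0.68 (0.0492). Beside these, edgeR gave nearly the same fold changes, such as -1.26 for LDHA and -0.87 for GAPDH for middle against low.

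Ratios of counts within a library do not depend on its size or on the space that milk transcripts take. LDHA to LDHB had a mean log2 ratio of -2.02 ± 0.90, -3.33 ± 0.47 and -2.53 ± 0.62 at the low, middle and high dose (SD, n = 4). Middle-dose replicates 1 to 4 stood at -2.94, -3.02, -3.98 and -3.36, and low-dose replicates at -1.45, -3.04, -1.11 and -2.48, so low-dose replicate 2 reached into the middle-dose range. The difference of -1.31 had p = 0.0857 in a two-sided exact permutation test (adjusted p = 0.514 over 18 ratio tests), where 4 against 4 cannot go below 0.0286. GAPDH to PGK1, enzymes of consecutive steps, had 1.88 ± 0.29, 1.30 ± 0.29 and 1.44 ± 0.57 in the same order, and its middle-minus-low difference of -0.57 had an exact permutation p of 0.0571 (adjusted p = 0.514). PFKM to PFKL differed by -0.82 between high and low (exact permutation p = 0.0857, adjusted p = 0.514). The ratios PFKP to PFKL, ALDOC to ALDOA and ENO2 to ENO1 had exact permutation p-values from 0.229 to 1, and none of the 18 tests passed.

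**Figure D4:**
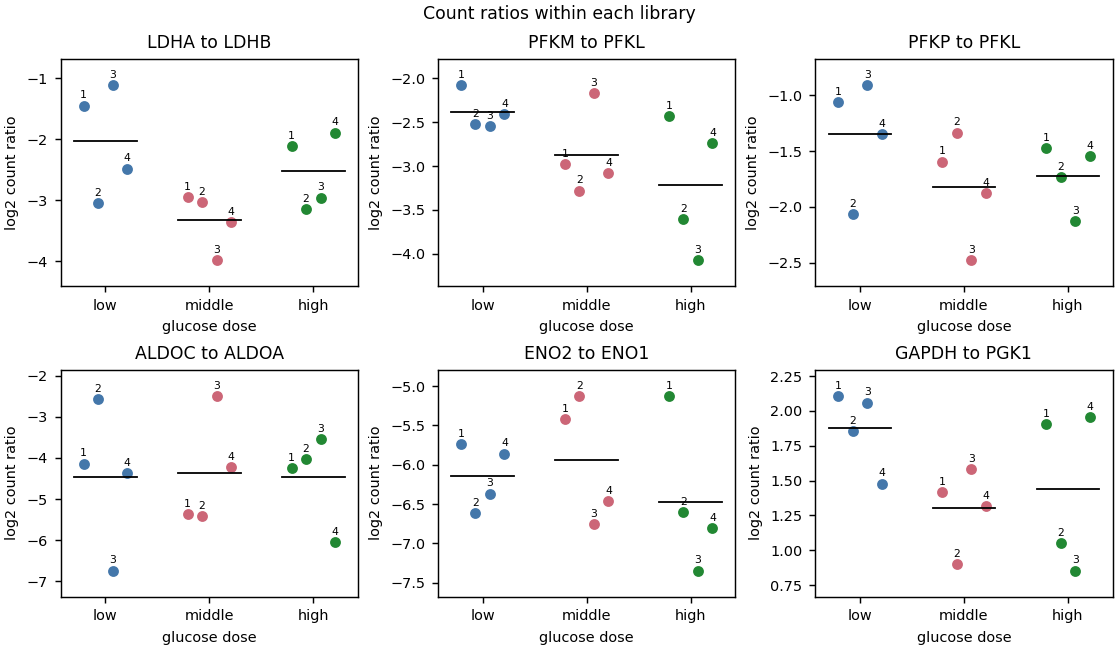
Log2 ratio of the counts of 6 gene pairs within each library (vertical axis) by glucose dose (horizontal axis); points are libraries with their replicate number and lines are means of 4. LDHA to LDHB has its lowest mean, -3.33, at the middle dose, and low-dose replicate 2 at -3.04 lies among the middle-dose values.

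Genes that border the pathway were read from 4 fixed lists. None of their members passed in edgeR in any comparison (0% of all genes did). Of 12 genes for the transport and fate of lactate and pyruvate, 9 had positive and 3 negative estimates for middle against low, with a median of 0.54. MPC1 and MPC2, which together carry pyruvate into mitochondria, had 1.96 ± 0.54 and 2.75 ± 0.76 (edgeR adjusted p = 0.0818 and 0.0822), and SLC16A3, the lactate exporter of glycolytic cells, had -1.49 ± 0.43 (0.0873). MPC2 stood at 11.4 to 23.1 CPM at the low dose, at 172.0, 125.0, 13.7 and 149.3 CPM in middle-dose replicates 1 to 4 and at 15.7 to 133.2 CPM at the high dose. As for ACSS1 and LOC102185156, its highest values were in the 4 milk-rich libraries, and the part of the milk share was not tested. MPC1 stood at 101.9 CPM in middle-dose replicate 3, within the low-dose range of 42.59 to 130.2 CPM.

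SLC16A3 instead stood at 1.73 to 2.78 CPM in all 4 middle-dose libraries, 2.72 to 9.91 CPM at the low dose and 2.45 to 6.53 CPM at the high dose. Like LDHA, it was low in middle-dose replicate 3 too, at 2.34 CPM. SLC16A1, the monocarboxylate carrier that moves lactate and other short acids either way, had the smallest p of this list for high against low, 2.13 ± 0.64 (edgeR adjusted p = 0.386). It ran from 81.4 to 373.4 CPM at the low dose, from 416.5 to 663.1 CPM at the middle dose and from 168.2 to 1648 CPM at the high dose. Under TMM, middle-dose SLC16A1 lay above the low dose without overlap, which held for 5.93% of all genes. By library size alone the low and middle doses overlapped. The estimate was 1.49 ± 0.62 (edgeR adjusted p = 0.176).

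The 11 tested genes of phosphofructokinase control and glycolytic transcription (13 of 14 were listed) had 5 positive and 6 negative estimates for middle against low, with a median of -0.05. MLX, the partner of the carbohydrate response factor, had 0.62 ± 0.19 (edgeR adjusted p = 0.1). EPAS1, a hypoxia-inducible factor, had 1.11 ± 0.47 (edgeR adjusted p = 0.185) and PFKFB4, which sets fructose 2,6-bisphosphate, 1.54 ± 0.68 (0.192). In middle-dose replicate 3, EPAS1 stood at 141.0 CPM, below the low-dose range of 159.4 to 363.8 CPM. MLX and PFKFB4 lay within their low-dose ranges there, at 63.15 CPM (47.21 to 67.61) and 20.83 CPM (10.06 to 56.9). Of the 7 pentose phosphate genes, 6 had positive estimates for middle against low: TKT, the transketolase that returns sugars to glycolysis, had 0.59 ± 0.21 (edgeR adjusted p = 0.126) and RPIA, the ribose phosphate isomerase, 0.87 ± 0.27 (0.0983). Both lay within their low-dose ranges in middle-dose replicate 3, TKT at 567.8 CPM (374.7 to 677.9) and RPIA at 11.77 CPM (10.8 to 13.79).

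The 7 genes of the glycerol phosphate and serine branches had 6 positive estimates for middle against low, with a median of 1.05. PSAT1, PSPH and SHMT2, enzymes of serine and glycine synthesis from 3-phosphoglycerate, had 2.64 ± 0.58, 3.04 ± 0.70 and 1.05 ± 0.27 (edgeR adjusted p = 0.0735, 0.0735 and 0.0762). PSPH stood at 6.57 to 9.56 CPM at the low dose and at 75.9, 94.8, 6.94 and 80.4 CPM in middle-dose replicates 1 to 4. PSAT1 and SHMT2 stood at 85.73 and 69.73 CPM in middle-dose replicate 3, against 57.6 to 98.15 and 59.06 to 81.67 CPM at the low dose. Middle-dose replicate 3 thus lay within the low-dose range for PSPH, PSAT1 and SHMT2, as it did for MPC1 and MPC2. It lay below that range for LDHA, and only narrowly for SLC16A3 (2.34 CPM against a low-dose minimum of 2.72 CPM).

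**Figure D5:**
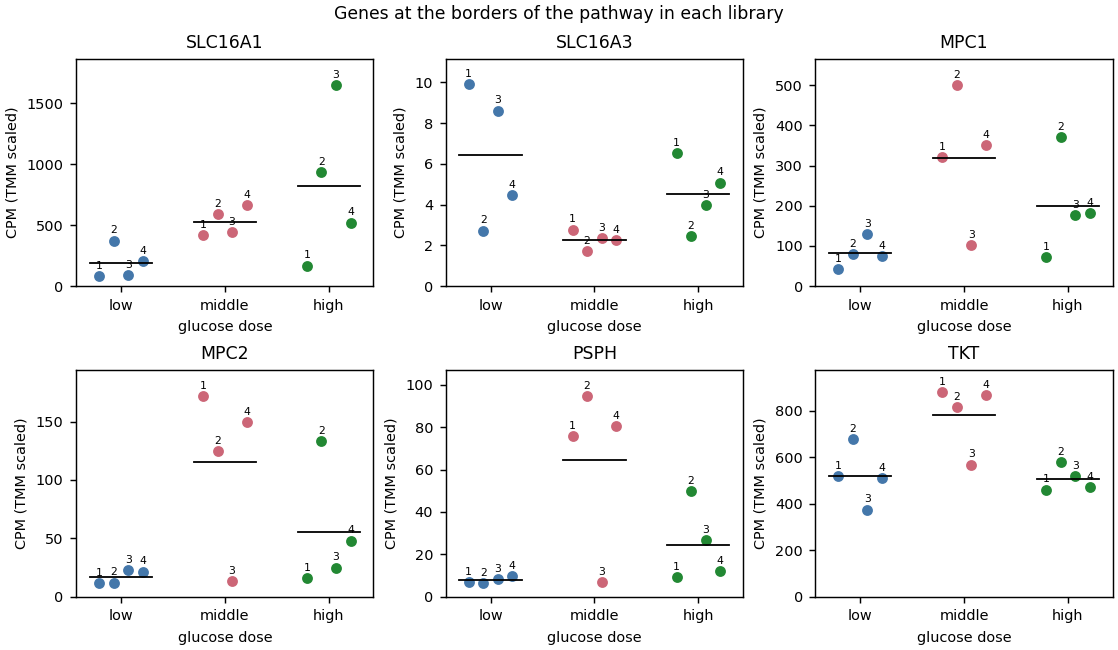
CPM scaled by TMM (vertical axis, from 0) of 6 genes at the borders of the pathway in each library, by glucose dose (horizontal axis); points are libraries with their replicate number and lines are means of 4. Middle-dose replicate 3 is at 13.7 CPM for MPC2 and 6.94 CPM for PSPH, near the low-dose libraries, and at 2.34 CPM for SLC16A3, with the other middle-dose libraries.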

How the data were processed

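Libraries were made from biopsy RNA by a TruSeq protocol, per the labels. For each library the authors deposited raw read counts per gene. Bowtie 0.12.2 and the mouse build mm8 appear in the submitters' processing notes, while the tables list goat genes. Read assignment and use of strand, and which goat build was used, were not given in the sources used here. Tables came in 2 layouts (16030 genes in 4 libraries, 15991 in 8), and the 15810 shared genes were used; all 42 members matched NCBI's ARS1.2 annotation by gene ID, which was used for names only.

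Groups came from the treatment labels. Genes were filtered with filterByExpr (minimum count 10, minimum total 15), scaled by TMM (factors 0.514 to 1.50) and tested with edgeR 4.0.16 in R 4.3.3, by the quasi-likelihood F test on all 12 libraries (single factor: dose), and adjusted by Benjamini and Hochberg over 13624 genes to a threshold of 0.05. Standard errors were taken from each log2 change and its F statistic (change over root F). No 2 libraries of a dose agreed within sampling noise. Ratios were log2 of counts with 1 added to each. The edgeR test was first run on simulated counts with known changes for middle against low. At the threshold it recovered 21.5% of 2-fold, 72.9% of 4-fold and 91.7% of 8-fold changes. Differences of the size seen here could thus often be missed. The simulation held no library that stood apart as middle-dose replicate 3 does.

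Alternatives were DESeq2 1.42.0 (test and size factors), library size alone, table layout as a term, fits without a filter or without milk protein genes, a block for replicate number and leaving out single libraries. Those for the any-difference count were added after seeing the data. Values in every library are given for the most counted member of each step and the 5 members with the smallest p in each comparison; border lists name up to 3 genes for a comparison. The members and lists were chosen with earlier results of these data known. A planned count of promoter motifs was not run. Of the members, 2 are not reported here by name, though they stay in the counts.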

Additional observations from a re-analysis of the deposited data

Results flagged for a closer look

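In 8 of 75 groups of 4 libraries (25 genes at 3 doses), 1 library lay far from the other 3 relative to the group's range, where chance gives about 1 in 20. Middle-dose replicate 3 was that library 5 times. HK3 stood there at 2.78 CPM against 6.72 to 6.93 CPM in the others of its dose, ADPGK at 55.7 CPM against 73.3 to 76.9 CPM, PFKL at 82.8 CPM against 46.8 to 51.3 CPM, LDHB at 406.2 CPM against 219.7 to 248.9 CPM and ACSS1 at 64.5 CPM against 226.7 to 258.8 CPM. At the low dose, ADPGK stood at 60.3 CPM in replicate 2 (others 40.9 to 43.3 CPM), ACSS1 at 190.8 CPM in replicate 3 (others 51.5 to 62.4 CPM) and ALDH1A3 at 64.5 CPM in replicate 4 (others 34.4 to 39.4 CPM). The flags share libraries and are not independent.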

How the results depend on the processing

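Alternative fits were made for 30 estimates, those with an unadjusted edgeR p under 0.05 or among the 5 smallest in a comparison. They were thus chosen for a small p, and some fits left out a library of the dose not compared. A kept direction is therefore weak evidence. Of 570 alternative fits, 565 kept the direction, and 25 moved past the threshold (14 by DESeq2, 10 without middle-dose replicate 3, 1 without low-dose replicate 2). The 5 that turned did so by library size alone: MINPP1 for high against low at -0.037, ADPGK and FBP1 for middle against low at -0.34 and -0.25, and AKR1A1 and ADH5 for high against middle at 0.22 and 0.19. Library size alone moved the members' medians to -0.24, -0.93 and 0.63 for high against low, middle against low and high against middle. DESeq2 called 57, 1410 and 272 genes in these comparisons where edgeR called 0, and 9 members for middle against low and 5 for high against middle. Leaving out each library in turn gave 0 to 19 genes called for high against low. It gave 0 to 2389 for middle against low (members 0 to 8, median -0.51 to -0.17). For high against middle it gave 0 to 505 (members 0 to 3, median 0.13 to 0.48). For any difference it gave 0 to 7 members, the 7 beside 1291 of 13797 genes called. The highest numbers of calls for the last 2 comparisons and for any difference came without middle-dose replicate 3, as did the medians of -0.51 and 0.48. The same turned the sign of some ratio differences: ALDOC to ALDOA ran from -0.77 to 0.62 for high against low, from -0.68 to 0.71 for middle against low and from -0.43 to 0.54 for high against middle, ENO2 to ENO1 from -0.065 to 0.48 for middle against low, PFKP to PFKL from -0.12 to 0.26 and GAPDH to PGK1 from -0.034 to 0.33 for high against middle. The causes were not tested. Same-numbered libraries of different doses correlated at -0.535 to 0.379 in their deviations from the dose mean. The best match had the same number in 4 of 24 cases. This does not settle whether the numbers carry a pairing, which the labels do not give, and the main fit used none. With a replicate block 0 members were called and the medians were -0.04, -0.35 and 0.22 in the order above. Genes under about 2 CPM, such as PKLR and LDHC, rest on few counts.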
